A study of Drosophila melanogaster with 9 samples.

Results

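The 10 genes described here encode replacement histones or proteins that help make histone mRNA, and they were picked by symbol from the 17199 genes of the deposited table. The histone variant genes are His2Av, His3.3A, His3.3B, His4r and BigH1. Slbp, mxc, mute, Lsm10 and Lsm11 encode proteins of the histone locus body or of histone mRNA 3′ end formation. All 10 were found by name, and all 10 are among the 10662 genes that carry an adjusted p in both comparisons.

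RNA came from the ovaries of 3 Drosophila melanogaster lines that differ at Pcif1, which encodes a nuclear protein that attaches to phosphorylated RNA polymerase II. Each line had 3 libraries of total RNA depleted of ribosomal RNA, and 3 pairs of ovaries were collected for each line, per the labels. In M6stop flies a CRISPR-Cas9 deletion shifts the Pcif1 reading frame into a premature stop codon. In F9ΔNLS flies an in-frame deletion removes the nuclear localization signal and leaves a protein of 829 amino acids. Both alleles arose in the w1118 background and were backcrossed, for 10 generations at most, to the line that serves as the control. That control line, BG02557, is not wild type at Pcif1, because it has the P-element P{GT1} in the first intron of that gene. The ages of the flies are not stated in the labels. The design asks which ovarian transcripts differ between each mutant line and BG02557.

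Most histone protein in a dividing cell comes from the replication-dependent genes, whose mRNAs end in a stem-loop instead of a poly(A) tail. These mRNAs are transcribed and cut in the histone locus body, a nuclear structure that assembles on the histone gene cluster. Replacement histones are made from ordinary polyadenylated mRNAs and enter chromatin outside S phase as well. In the fly ovary, nurse cells copy their genomes many times over and load the egg with histone protein and histone mRNA for the early embryo.

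The values are the authors' own: a mean normalized count per gene over all libraries, a log2 fold change of each mutant line over BG02557, and an adjusted p. The 9 columns of library values carry codes that match no sample label, so no library value, standard deviation or interval is given, and the groups' overlap could not be examined. A gene is said to have fallen or risen where the authors' deposited table lists a DESeq2 adjusted p under 0.05. The listed fold changes may have been shrunk toward 0, since 45 genes called in M6stop and 29 called in F9ΔNLS had an absolute log2 value under 0.1 in the authors' deposited table. They may therefore understate the changes, and by differing amounts in each comparison. In ovary RNA, fewer cells of a type and less RNA per cell cannot be told apart.

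In M6stop ovaries 1 of the 10 genes fell, His3.3B, and 0 rose. Over all genes tested, 2.04% fell and 3.48% rose in M6stop. In F9ΔNLS ovaries 4 of the 10 fell, Slbp, mute, BigH1 and His4r, and 0 rose. Over all genes tested, 11.9% fell and 11.6% rose in F9ΔNLS. The median log2 fold change of the 10 genes in the authors' deposited table was -0.05 in M6stop, where the median of all tested genes was -0.00070. In F9ΔNLS it was -0.22 in the authors' deposited table, where the median of all tested genes was 0.0040. Among tested genes whose mean count reached 1000, where 1.73% fell in M6stop and 13.3% in F9ΔNLS, 1 of 8 of these genes fell in M6stop and 4 of 8 in F9ΔNLS by DESeq2 in the authors' deposited table. By the file header both comparisons are against the same control, taken here as BG02557, so they may share its libraries. M6stop was not tested against F9ΔNLS, since the library columns match no sample label.

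The counts moved with the threshold. At a DESeq2 adjusted p under 0.01 in the authors' deposited table, 0 of the 10 fell in M6stop and 1, Slbp, fell in F9ΔNLS, beside 1.36% and 6.93% of all tested genes. Under 0.1, 1 fell in M6stop and 5 in F9ΔNLS, with Lsm11 added, beside 2.65% and 15.2% of all tested genes. With p-values rebuilt from the adjusted ones, 0 passed a Bonferroni adjustment in either line, beside 0.872% that fell in M6stop and 1.64% that fell in F9ΔNLS, while 2 in M6stop and 7 in F9ΔNLS had an unadjusted p under 0.05 with a value below 0, beside 6.13% and 17.5% of all tested genes. With a value above 0, 0 of the 10 had an unadjusted p under 0.05 in M6stop and 0 in F9ΔNLS. These rebuilt p-values are upper bounds, so the counts are minimums.

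**Figure D1:**
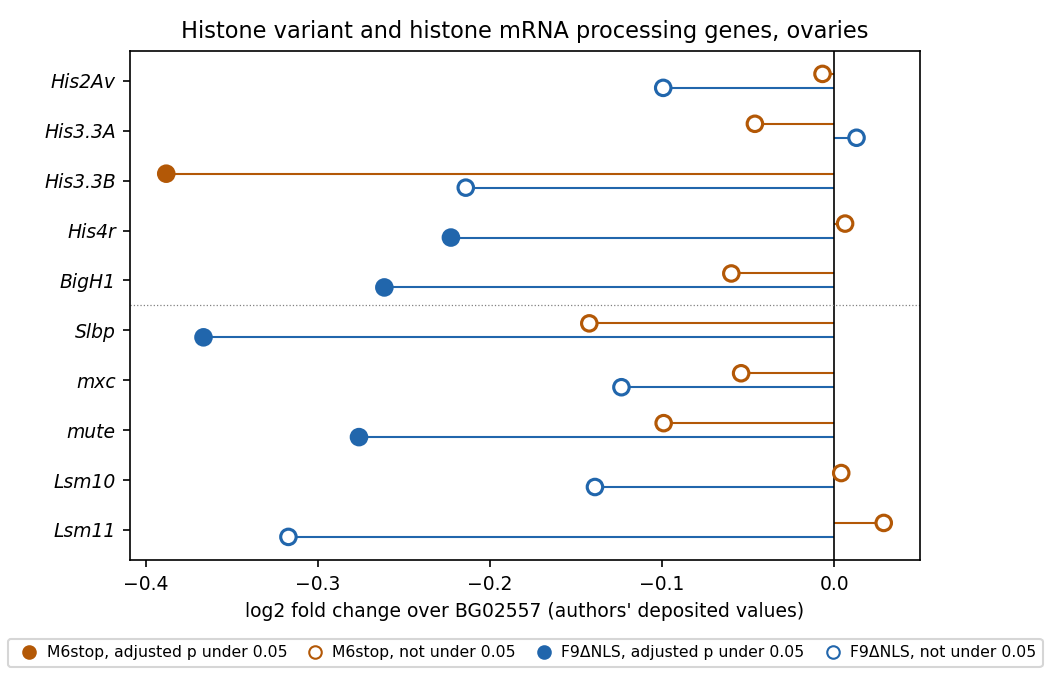
Log2 fold change over BG02557 of each gene (horizontal axis) in M6stop (orange) and F9ΔNLS (blue), from the authors' deposited table; filled points have a DESeq2 adjusted p under 0.05, and the dotted line parts the variants (above) from the histone locus body and processing genes (below). The filled points are His3.3B in M6stop at -0.39 and Slbp, mute, BigH1 and His4r in F9ΔNLS between -0.37 and -0.22.

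His3.3A and His3.3B encode the same protein, the histone variant H3.3, which replaces H3 in active chromatin. His3.3B (FBgn0004828) lies on X from 9152523 to 9156669 on the minus strand (BDGP6), with 4 annotated transcripts of 3 exons each. Its log2 fold change in the authors' deposited table was -0.39 in M6stop, so that its level fell by 23.6% (DESeq2 adjusted p = 0.010). In F9ΔNLS the value for His3.3B was -0.21 in the authors' deposited table and did not pass (DESeq2 adjusted p = 0.12). The authors' deposited table lists a mean of 14737 normalized counts for His3.3B.

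His3.3A (FBgn0014857) lies on 2L from 5055058 to 5056149 on the plus strand (BDGP6) and has 3 annotated transcripts of 2 exons. Neither comparison called it: its log2 fold change in the authors' deposited table was -0.05 in M6stop (DESeq2 adjusted p = 0.74) and 0.01 in F9ΔNLS (DESeq2 adjusted p = 0.91). It was the only one of the 10 with a listed F9ΔNLS value above 0. The authors' deposited table lists its mean as 1683 normalized counts. Both genes have a coding length of 136 codons, and reads from stretches that are alike in both could be split between them by the counting, so their separate values are uncertain to that extent. Per kilobase of exon, His3.3B had a mean level 3.44 times that of His3.3A, and on mean counts without length scaling 8.76 times. His3.3A overlaps Nepl3 on the other strand over 168 bases, where its value is uncertain.

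His4r (FBgn0013981) encodes the same protein as the H4 genes of the cluster, from a gene with introns that lies elsewhere, on 3R from 14625755 to 14626614 on the plus strand (BDGP6). It fell in F9ΔNLS, with a log2 fold change of -0.22 in the authors' deposited table, so that it fell by 14.3% (DESeq2 adjusted p = 0.049). In M6stop its value was 0.0063 in the authors' deposited table and did not pass (DESeq2 adjusted p = 0.98). The authors' deposited table lists its mean as 3327 normalized counts. The His4r call was the closest to the threshold of the F9ΔNLS calls.

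BigH1 (FBgn0038252) encodes a large linker histone that takes the place of H1 in the germline and in the early fly embryo before its genome is transcribed. It lies on 3R from 14663450 to 14664822 on the plus strand (BDGP6), with 2 exons and a coding length of 353 codons, against 256 codons in the H1 genes of the cluster. It fell in F9ΔNLS, with a log2 fold change of -0.26 in the authors' deposited table, so that it fell by 16.6% (DESeq2 adjusted p = 0.023). In M6stop it was -0.06 in the authors' deposited table and did not pass (DESeq2 adjusted p = 0.70). The authors' deposited table lists its mean as 3415 normalized counts.

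His2Av (FBgn0001197) encodes the only H2A variant of the fly, which serves both in transcription and in the response to broken DNA. It lies on 3R from 26866929 to 26869220 on the plus strand (BDGP6). Neither comparison called it, at -0.0068 in M6stop (DESeq2 adjusted p = 0.97) and -0.10 in F9ΔNLS (DESeq2 adjusted p = 0.11) per the authors' deposited table. The authors' deposited table lists its mean as 8737 normalized counts. A p that misses the threshold does not show that the level was the same, and no interval could be made.

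Slbp (FBgn0041186) encodes the protein that binds the stem-loop of histone mRNA and is needed for its cutting and use. The gene lies on 3R from 29152074 to 29153266 on the minus strand (BDGP6). It fell in F9ΔNLS with a log2 fold change of -0.37 in the authors' deposited table, so that it fell by 22.4% (DESeq2 adjusted p = 0.0043). This was the lowest F9ΔNLS value and the smallest F9ΔNLS adjusted p among the 10 genes, and the median of all 1264 genes that fell in F9ΔNLS was -0.38 in the authors' deposited table. In M6stop Slbp was at -0.14 in the authors' deposited table and did not pass (DESeq2 adjusted p = 0.32). The authors' deposited table lists its mean as 1410 normalized counts.

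The histone locus body proteins gave 1 call. The mute gene (FBgn0085444), which encodes a protein of that body, lies on 2R from 16948296 to 16955266 on the minus strand (BDGP6) and has a long and a short annotated coding form, of 1739 and 665 codons. It fell in F9ΔNLS with a log2 fold change of -0.28 in the authors' deposited table, so that it fell by 17.4% (DESeq2 adjusted p = 0.035), and was at -0.10 in M6stop (DESeq2 adjusted p = 0.49). It overlaps Ufm1 on the other strand over 745 bases, and the strand setting of the counting is not given, so its value is uncertain there. Ufm1 itself was at -0.0016 in F9ΔNLS (DESeq2 adjusted p = 0.99) per the authors' deposited table.

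The mxc gene (FBgn0260789) encodes the scaffold on which the histone locus body forms, a substrate of Cyclin E-Cdk2. It lies on X from 9236801 to 9243467 on the minus strand (BDGP6). Its log2 fold change in the authors' deposited table was -0.05 in M6stop (DESeq2 adjusted p = 0.72) and -0.12 in F9ΔNLS (DESeq2 adjusted p = 0.44), so neither comparison called it. The authors' deposited table lists mean levels of 3531 normalized counts for mute and 2781 for mxc.

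Lsm10 and Lsm11 are the Sm-like proteins that set the U7 particle, which guides the cut of histone pre-mRNA, apart from the spliceosomal particles. Lsm11 (FBgn0033450, 2R from 9838434 to 9839500 on the minus strand, BDGP6) was at 0.03 in M6stop (DESeq2 adjusted p = 0.87) and at -0.32 in F9ΔNLS in the authors' deposited table, and its F9ΔNLS adjusted p of 0.0501 (DESeq2) just missed the threshold. It overlaps CG1663 over 48 bases on the other strand, and CG1663 fell in F9ΔNLS (-0.49, DESeq2 adjusted p = 9.6e-04) per the authors' deposited table. The part of this overlap in the Lsm11 value was not tested. Lsm10 (FBgn0033554, 2R from 10821098 to 10821640 on the minus strand, BDGP6) was at 0.0041 in M6stop (DESeq2 adjusted p = 0.99) and -0.14 in F9ΔNLS (DESeq2 adjusted p = 0.44) per the authors' deposited table. Lsm10 overlaps Prosbeta5 on the other strand over 81 bases, where its value is uncertain. With means listed in the authors' deposited table as 206 and 109 normalized counts, Lsm11 and Lsm10 were the only ones of the 10 whose values rest on fewer counts than the median tested gene, at 570. The U7 RNA itself, snRNA:U7, has a mean of 0.32 in the authors' deposited table and was not tested.

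**Figure D2:**
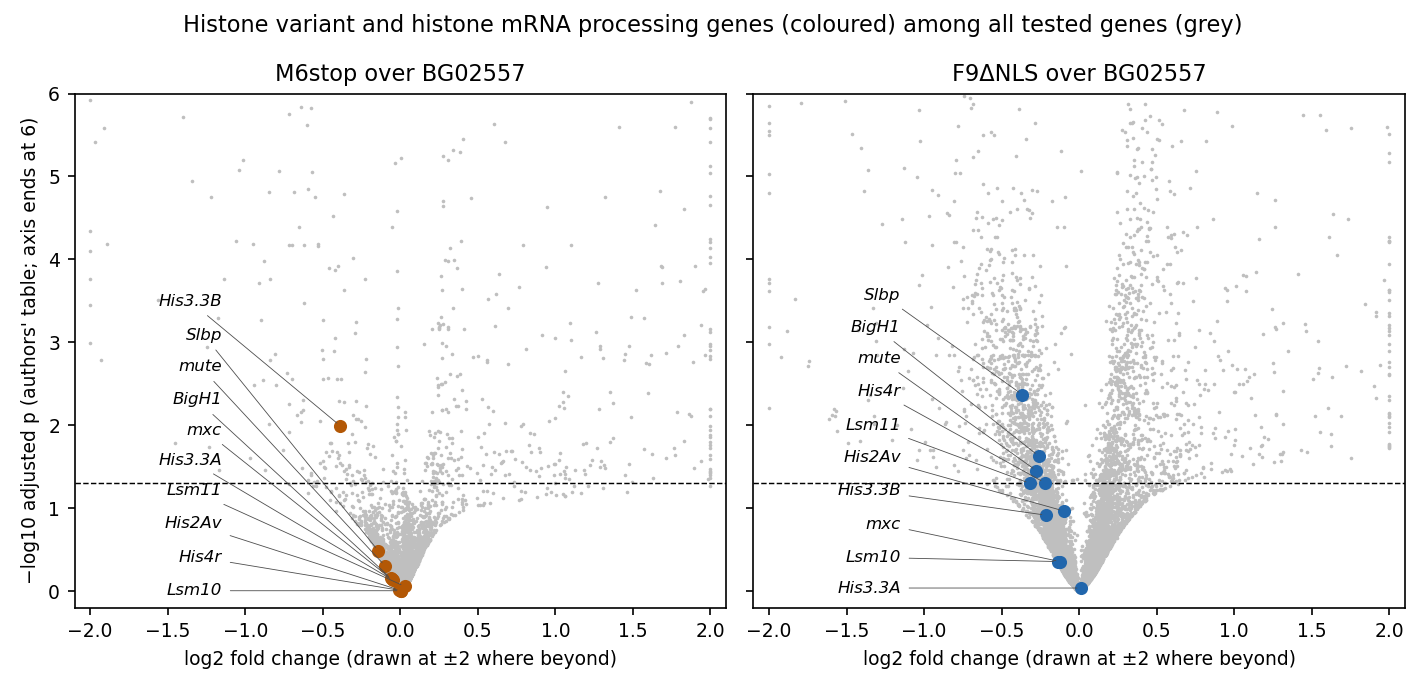
Log2 fold change (horizontal axis, genes beyond 2 drawn at the edge) against −log10 of the DESeq2 adjusted p (vertical axis, genes beyond 6 not drawn) for all tested genes (grey) and the 10 genes (coloured and named), M6stop left and F9ΔNLS right, from the authors' deposited table; the dashed line marks an adjusted p of 0.05. In M6stop His3.3B alone of the 10 is above the line, and in F9ΔNLS Slbp, BigH1, mute and His4r are above it with Lsm11 just below.

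Levels between genes were compared per kilobase of exon, with each base found in any annotated transcript counted once. This length can exceed that of every single transcript, as for His3.3B with 2552 bases against at most 2114. The order of close levels may depend on this choice. His2Av had 7138 normalized counts per kilobase, His3.3B 5775, His4r 4179, BigH1 2670 and His3.3A 1680, from the means of the authors' deposited table and the exon length of the annotation. Slbp followed with 1246 per kilobase, and then mute with 606 and mxc with 446. Lsm10 (201) and Lsm11 (193) were last and nearly level per kilobase. With no spread between libraries, none of these neighbours can be called different.

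**Figure D3:**
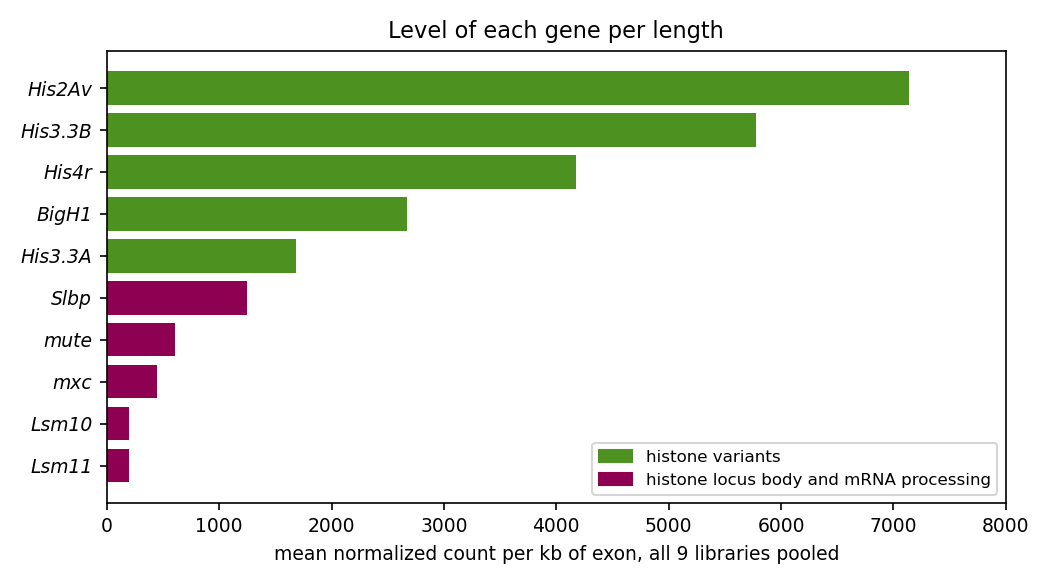
Mean normalized count per kilobase of exon (horizontal axis) of each of the 10 genes, pooled over the 9 libraries, with variants in green and histone locus body and processing genes in purple; there are no error bars because no library values were used. The bars run from 7138 for His2Av to 193 for Lsm11.

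The gene structures of the variants differ from those of the cluster genes. His3.3A, His3.3B, His4r, His2Av and BigH1 have at least 2 exons in every annotated transcript, while the 2 H3, 6 H4, 4 H2A and 12 H1 cluster genes that the table lists have 1 exon. His3.3A and His3.3B match the cluster H3 genes in coding length, at 136 codons, and His4r matches the cluster H4 genes, at 103 codons. His2Av has 141 codons, against 124 in the cluster H2A genes. Summed per kilobase of exon, His3.3A and His3.3B made up 7.65% of the level of all listed H3 genes, His2Av 6.18% of H2A, BigH1 5.59% of H1 and His4r 4.12% of H4. The shares depend on the length scaling: on summed mean counts they were 25.7% for H3, 14.1% for H2A, 6.90% for H1 and 7.65% for H4, so the order of H1 and H4 turned. Of 23 tested cluster copies, 5 fell and 1 rose in M6stop, and 14 fell and 2 rose in F9ΔNLS, by DESeq2 in the authors' deposited table. Of all tested genes, 2.04% fell and 3.48% rose in M6stop, and 11.9% fell and 11.6% rose in F9ΔNLS. Cluster copies differ from each other in few bases, so how reads were shared out among them, and between His4r and the cluster H4 genes where they are alike, is uncertain.

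Some other genes of histone pre-mRNA processing and of the histone locus body fell in F9ΔNLS, and whether the lines differ was not tested. Of 20 tested genes on this list 9 fell and 0 rose in F9ΔNLS (median log2 fold change -0.16), and 0 fell or rose in M6stop (median -0.05), by DESeq2 in the authors' deposited table. Over all genes tested, 11.9% fell in F9ΔNLS and 2.04% in M6stop. In F9ΔNLS the authors' deposited table gave -0.31 for Cpsf73, the enzyme that cuts histone pre-mRNA (DESeq2 adjusted p = 0.0069), and -0.21 for its partner Cpsf100 (DESeq2 adjusted p = 0.0093). The cap-binding gene Cbp20 (-0.37, DESeq2 adjusted p = 0.0034), the Sm core gene SmB (-0.17, DESeq2 adjusted p = 0.011) and Nelf-E (-0.36, DESeq2 adjusted p = 0.011), of the factor that pauses RNA polymerase II, fell in F9ΔNLS, by the authors' deposited table. The abo gene, whose product represses histone genes in the fly, fell by 0.53 on the log2 scale in F9ΔNLS (DESeq2 adjusted p = 0.0038) per the authors' deposited table. Nelf-E overlaps CG43078 over 176 bases on the other strand and is uncertain there. At a rebuilt unadjusted p under 0.05, 1 gene of the list was lower in M6stop, beside 6.13% of all tested genes. In M6stop the 6 named genes lay between -0.16 and -0.02 in the authors' deposited table.

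The remaining 3 falls of this list, named after their values were seen, were of genes whose products act at the histone locus body. CycE (-0.38, DESeq2 adjusted p = 0.027) and Cdk2 (-0.37, DESeq2 adjusted p = 0.020), which together phosphorylate the mxc protein, fell in F9ΔNLS, by the authors' deposited table. Clamp, which binds the GA repeats of the histone cluster, fell as well (-0.33, DESeq2 adjusted p = 0.017) per the authors' deposited table. FLASH, the partner of Lsm11, was at -0.29 and did not pass (DESeq2 adjusted p = 0.070) per the authors' deposited table. Each of these 4 genes overlaps another gene on the opposite strand, so its value is uncertain to that extent.

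Genes for histone chaperones and exchange complexes included both falls and rises in F9ΔNLS. Of 26 tested genes 8 fell and 3 rose in F9ΔNLS (median -0.15), and 0 changed in M6stop (median -0.04), by DESeq2 in the authors' deposited table. Of all tested genes, 11.9% fell and 11.6% rose in F9ΔNLS. At a rebuilt unadjusted p under 0.05, 1 of the 26 was lower in M6stop, beside 6.13% of all tested genes. The H3-H4 chaperone gene asf1 fell by 0.58 on the log2 scale in F9ΔNLS (DESeq2 adjusted p = 1.2e-04) per the authors' deposited table. Jabba, which holds histones on lipid droplets in the egg, fell by 0.48 in F9ΔNLS (DESeq2 adjusted p = 2.9e-04), by the authors' deposited table. XNP (-0.28, DESeq2 adjusted p = 0.0058), which helps to place H3.3, and Bap55 (-0.32, DESeq2 adjusted p = 0.0076), a subunit of the Tip60 complex, fell in F9ΔNLS, by the authors' deposited table. Hira, an H3.3 chaperone gene, fell too (-0.30, DESeq2 adjusted p = 0.016) per the authors' deposited table. The yem gene, whose product works with Hira, was at -0.22 and did not pass (DESeq2 adjusted p = 0.088). Falls were not limited to H3.3 chaperone genes. The Caf1 chaperone subunit gene Caf1-105 (-0.44, DESeq2 adjusted p = 0.014) and another Caf1 subunit gene (-0.29, DESeq2 adjusted p = 0.023) fell in F9ΔNLS. A further Caf1 subunit gene was at -0.27 and did not pass (DESeq2 adjusted p = 0.097). Hira, yem and the Caf1 genes were named after their values were seen.

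Some subunits of the Tip60 complex, which exchanges H2Av, were called in F9ΔNLS, in both directions. Tip60, its acetyltransferase, named after its value was seen, fell (-0.26, DESeq2 adjusted p = 0.046) per the authors' deposited table. YL-1, MRG15, E(Pc), Nipped-A, Act5C, Ing3, DMAP1, Gas41, Eaf6 and Brd8, of the same list, were not called in F9ΔNLS by DESeq2. They too were named after their values were seen. The ATPase genes that rose were dom (0.36, DESeq2 adjusted p = 6.5e-04) and rept (0.27, DESeq2 adjusted p = 0.0034) per the authors' deposited table. The third rise was of Nap1, a chaperone gene of H2A and H2B (0.19, DESeq2 adjusted p = 0.034), and pont, another ATPase gene of the complex, was at 0.15 (DESeq2 adjusted p = 0.22), per the authors' deposited table. Both were named after their values were seen. The span of dom holds small nucleolar RNA genes on the same strand, so reads there are uncertain. On the other strand Tip60 overlaps tyf over 468 bases and dgt4 over 130, and Nap1 overlaps asRNA:CR45926 over 1367. The values of Tip60 and Nap1 are uncertain there. Of the centromeric H3 variant and its loaders, 1 of 3 fell in F9ΔNLS, cid (-0.65, DESeq2 adjusted p = 0.0061), and cal1 (-0.19) and Cenp-C (-0.19) missed the threshold, by the authors' deposited table. In M6stop 0 of these 3 genes changed by DESeq2, and 0 had a rebuilt unadjusted p under 0.05, with values between -0.11 and -0.05 in the authors' deposited table.

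**Figure D4:**
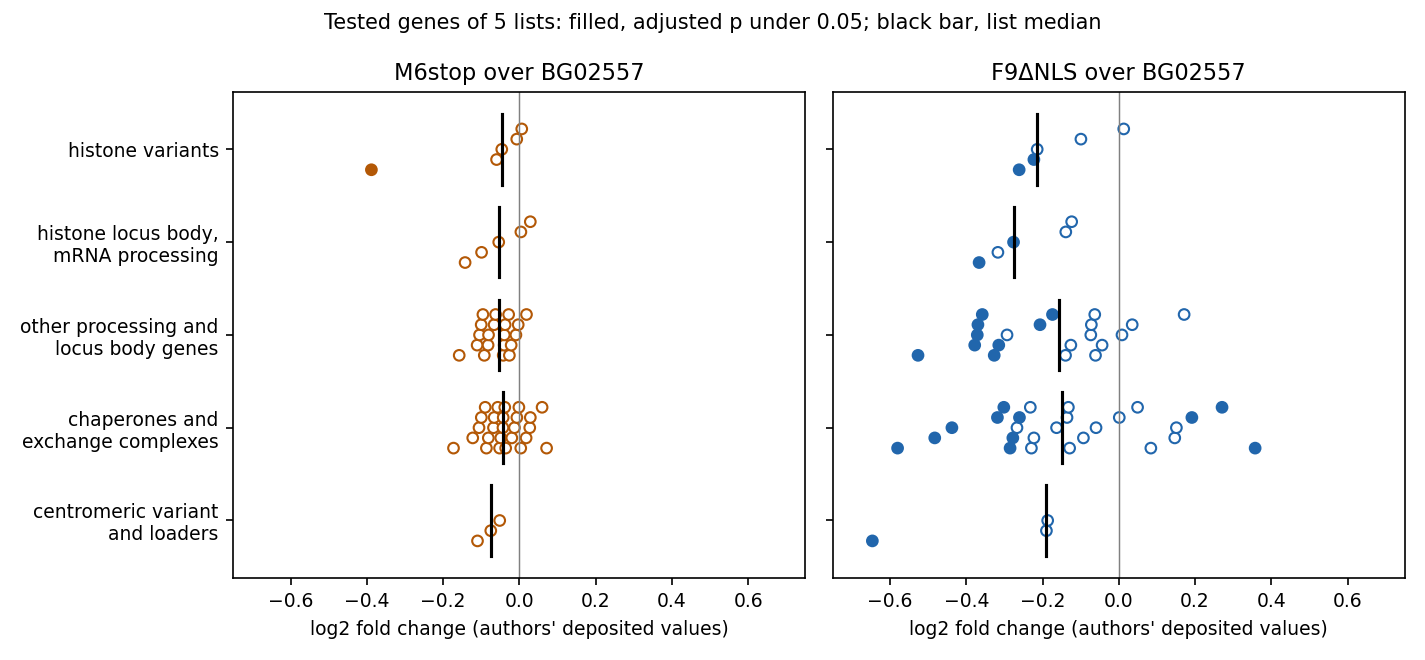
Log2 fold change (horizontal axis) of the tested genes of 5 lists in M6stop (left) and F9ΔNLS (right), from the authors' deposited table; filled points have a DESeq2 adjusted p under 0.05, the black bars mark list medians, and points are spread vertically for legibility. In M6stop His3.3B is the only filled point, and in F9ΔNLS the filled points are mostly at or below -0.17, with dom, rept and Nap1 above 0.

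Markers of ovarian cells and of fat body also moved. Of 10 germline markers 3 rose and 1 fell in F9ΔNLS, of 10 follicle cell markers 4 rose and 1 fell, of 10 muscle sheath markers 8 rose, and of 7 fat body markers 2 rose, by DESeq2 in the authors' deposited table. In M6stop the calls were 0 germline, 2 follicle cell, 5 muscle and 4 fat body markers, all upward, by DESeq2 in the authors' deposited table. The 2 follicle cell calls were Yp1 (1.05, DESeq2 adjusted p = 0.0039) and Vm26Ab (0.84, DESeq2 adjusted p = 0.021), and the other follicle cell markers were not called. The 4 fat body calls in M6stop were apolpp (1.29), Apoltp (1.67), CG6910 (1.69) and Obp99a (0.996), none of them called in F9ΔNLS. The 2 in F9ΔNLS were Fbp1 (2.61, DESeq2 adjusted p = 0.017) and Lsp1alpha (0.09, DESeq2 adjusted p = 0.033), and neither was called in M6stop. The apolpp gene overlaps Zyx over 4033 bases on the other strand, where its value is uncertain. Among all tested genes 11.6% rose and 11.9% fell in F9ΔNLS, and 3.48% rose and 2.04% fell in M6stop. At an unadjusted p under 0.05, rebuilt from those adjusted values, 1 germline, 3 follicle cell, 9 muscle and 4 fat body markers were higher in M6stop. The share of all tested genes higher in M6stop at that threshold was not computed, so these counts have no background beside them. The marker sums over all libraries were 89856 normalized counts for germline, 86648 for follicle cells, 24333 for muscle and 5643 for fat body in the authors' deposited table, and 0 of these markers were at 0. Sperm chromatin genes of the testis were at or near 0, with 6 genes listed at 0 to 0.88 mean normalized counts per the authors' deposited table. The part of cell makeup in the falls of Slbp, mute, BigH1, His4r and His3.3B was not tested. The Pcif1 RNA itself, listed as CG11399, was at -2.51 in M6stop (DESeq2 adjusted p listed as 0) and 0.02 in F9ΔNLS (DESeq2 adjusted p = 0.83) per the authors' deposited table.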

How the data were processed

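Ovary RNA was cleared of ribosomal RNA and sequenced as paired-end libraries, per the labels' protocols. The submitters' processing notes list DESeq, DESeq2 1.25.10, Salmon 1.3.0, R 3.6.3 and the build BDGP6, with no role or order, and nothing used here states the annotation, strand setting or filters. The mean normalized count is a signal value that the authors deposited, which in DESeq2's tables is the average over all libraries of counts scaled by size factors. The log2 fold changes and adjusted p-values were likewise deposited by the authors, per the file headers. Base 2 of the logarithm was assumed, and neither shrinkage nor the adjustment method is stated.

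The table's 9 library columns match no sample label and were not used. The edgeR or limma fits planned for library values were therefore not run, the depth per library is unknown here, and the DESeq2 comparisons of the authors took their place. That replicates are biological rests on the design text alone. The members and lists were chosen with earlier results of these data known. Of 105 list entries 103 were matched by name. Named genes are all members, up to 6 called genes per further list with the smallest adjusted p, and Pcif1. CG1663, Ufm1, FLASH, Nap1, cal1, Cenp-C and snRNA:U7, like the genes said in the text to be named later, fall outside that rule. Positions, exons and coding lengths come from Ensembl release 115 (BDGP6.54), where all 10 members had the chromosome the table gives. Unadjusted p-values were rebuilt as upper bounds from the adjusted ones, taking these as Benjamini-Hochberg values, and this step was tested on simulated data. Python 3.11.15 and pandas 2.3.3 were used.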

Additional observations from a re-analysis of the deposited data

How the results depend on the processing

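The counts of called genes depended on the threshold. At a DESeq2 adjusted p under 0.01, 1 of the 10 genes was called in F9ΔNLS (Slbp, downward) and 0 in M6stop, where His3.3B was at 0.0101. The 86 other listed genes include the cell type markers. At that threshold 23 of them were called in F9ΔNLS (13 up, 10 down), against 40 as reported (20 up, 20 down). In M6stop 6 were called, against 11 as reported, all of them rises of cell type markers. As reported, 11.6% of all tested genes rose and 11.9% fell in F9ΔNLS, and 3.48% rose in M6stop. Under 0.01, 6.93% of all tested genes fell in F9ΔNLS, and the shares that rose in either line were not computed. With Bonferroni adjustment 0 of the 10 were called in M6stop and 0 in F9ΔNLS, and at a rebuilt unadjusted p under 0.05, chosen after seeing the data, 2 in M6stop and 7 in F9ΔNLS. At 0.1, with a mean of 50 or more, with an absolute log2 fold change of 0.2 or more, and with a mean of 1000 or more (chosen after seeing the data), both counts of the 10 genes stayed within 1.5 times those reported. The shares of all tested genes called under the limits of 50 and 0.2 were not computed, so whether they moved too is not known. No paired analysis was possible because the library columns carry no replicate number or sample name. For that reason fits without each replicate, other normalizations and other count filters were not run, and a call that rests on 1 library would not be seen.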

Other observations

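The genes lie apart on 4 chromosome arms, with 2 close pairs. His4r and BigH1 are 36.8 kb apart on 3R with 6 tested genes between them, of which 2 fell and 0 rose in F9ΔNLS and 0 changed in M6stop by the authors' DESeq2 adjusted p. His3.3B and mxc are 80.1 kb apart on X with 14 tested genes between them, of which 1 fell and 1 rose in F9ΔNLS and 0 changed in M6stop by the same measure. None of the 10 lies on 3L, the arm that holds Pcif1. In F9ΔNLS 12.3% of tested genes fell on 2L, 11.1% on 2R, 12.0% on 3R and 11.4% on X, beside 12.8% on 3L. In M6stop 1.73% of tested genes fell on 2L, 1.84% on 2R, 1.93% on 3R and 2.42% on X, beside 2.30% on 3L. The part of chromosomal position in the calls was not tested.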
